A study of Mus musculus with 41 samples.

Results

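The receptors that answer glutamate and GABA were followed on 45281 array probes of neonatal mouse tissue, with the whole brain of regular-diet (RD) males as the main material. A probe belonged here when its annotated symbol named an AMPA (Gria), kainate (Grik), NMDA (Grin), metabotropic glutamate (Grm) or GABA-A (Gabra, Gabrb, Gabrg, Gabrd) subunit. That rule found 67 probes of 30 genes among the 19057 genes with a symbol. It used names only and no measured value. Subunits of these families with no matching probe were not analysed here.

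Glutamate opens 3 kinds of ion channel. AMPA receptors carry most fast excitation, NMDA receptors need depolarisation and a co-agonist and let calcium in, and kainate receptors tune release and excitability. The metabotropic receptors signal through G proteins. GABA-A receptors are chloride channels built from 5 subunits, and in newborn rodent neurons they can depolarise, because the chloride importer Slc12a2 precedes the exporter Slc12a5. Subunit composition changes in the weeks around birth in the rodent brain.

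All animals were 4-day-old (postnatal day 4) C57/BL6NHsd pups. The brain groups were 3 males of vehicle-treated dams on regular diet and 3 males of metformin-treated dams on the same diet, metformin having been given orally to the dam during gestation. Liver came from the males with the same 6 animal codes, from 6 RD females (3 control, 3 metformin) and from 12 males of dams on a high fat diet (HFD; 6 control, 6 metformin). Subcutaneous adipose tissue (SAT) came from 6 control and 5 metformin HFD males. The labels name no litter, so p-values measure the spread between these pups and littermates could be among them. Each array gives 1 whole tissue, in which fewer cells of a type and less RNA per cell cannot be told apart.

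Brain identity was clear in the arrays. A probe counted as detected on an array when its detection p was under 0.05. The share of all probes detected was 43.6% to 46.1% on the 6 brains, 30.97% to 41.6% on 24 livers and 29.9% to 43.4% on 11 SAT arrays. Of 11 neuron markers 9 were detected on all brains, among them Stmn2, Map2 and Syn1, while the chosen probes of Snap25 and Nefl were detected on none. The hepatocyte markers Alb, Afp, Serpina1a and Cps1 were at background in every brain, and Apoa1 was detected on all 6 at low signal (5.23 to 5.58). The first principal component of the 19182 probes kept in brain held 54.97% of the variance and crossed the treatment groups. Controls 1B and 3B and metformin animal 6F lay at 28.6, 16.1 and 20.0 on it, and control 5C and metformin animals 3E and 1E at -26.2, -19.8 and -18.6. Its cause was not tested.

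The promoters of 3 genes are shown because the neighbours among them differed in detection and the first carries a known kind of control element. Gria2 was detected on all 6 brains with every one of its 3 probes. Gabrb1 and Gabra4 start 387 bases apart on opposite strands of chromosome 5, and Gabrb1 was detected on all brains with both its probes while the Gabra4 probe was detected on none. Sequences are RefSeq's for GRCm38.p6, 5′ to 3′ on the gene's strand, from 250 bases before to 50 after a listed transcript start. They lie at chr3:80802786-80803085 (minus strand), chr5:71657671-71657970 (plus strand) and chr5:71658259-71658558 (minus strand). Capitals mark in Gria2 both parts of an RE1 element, the site bound by the repressor of neuronal genes REST, and in Gabra4 the GC boxes.
Gria2: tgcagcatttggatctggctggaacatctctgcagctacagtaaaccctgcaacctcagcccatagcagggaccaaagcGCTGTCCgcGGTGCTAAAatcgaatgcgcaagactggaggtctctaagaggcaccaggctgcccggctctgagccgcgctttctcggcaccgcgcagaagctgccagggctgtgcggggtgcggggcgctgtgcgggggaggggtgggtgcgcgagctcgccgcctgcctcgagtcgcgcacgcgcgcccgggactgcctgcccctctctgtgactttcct
Gabrb1: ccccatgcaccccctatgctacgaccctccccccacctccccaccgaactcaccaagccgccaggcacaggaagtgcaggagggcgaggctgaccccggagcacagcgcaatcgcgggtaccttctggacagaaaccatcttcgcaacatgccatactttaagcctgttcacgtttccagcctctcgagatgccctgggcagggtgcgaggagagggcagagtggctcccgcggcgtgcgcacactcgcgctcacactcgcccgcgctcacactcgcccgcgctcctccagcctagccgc
Gabra4: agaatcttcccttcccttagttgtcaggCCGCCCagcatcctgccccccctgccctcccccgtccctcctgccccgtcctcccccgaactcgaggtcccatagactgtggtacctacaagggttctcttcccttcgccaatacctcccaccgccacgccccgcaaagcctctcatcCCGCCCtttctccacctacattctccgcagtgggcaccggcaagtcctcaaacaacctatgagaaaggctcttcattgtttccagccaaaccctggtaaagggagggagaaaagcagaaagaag
Of 30 genes 21 had such windows (28 in all). GGACAGC, the right-hand part of RE1, was searched on both strands and stood in 6.56% of all 32851 windows and in 1 of the 28, that of Gria2. There it lies on the opposite strand. The left-hand part TTCAGCACC stood 2 bases from it with 1 of its 9 letters different, an arrangement with at most 1 different letter found in 0.0244% of all windows (8 windows). The exact left-hand part was in 0.371% of all windows and in none of the 28. The GC box GGGCGG was in 35.7% of all windows and in 11 of the 28, with 2 copies in Gabra4 and none in Gria2 or Gabrb1. TATAAA was in 13.6% of all windows and in 4 of the 28 (of Gabra3, Gabrb2 and Grin3b). A match is a description of the letters and not a site in use. The Rest probe itself was not detected on any brain. Outside brain it was detected on only 1 liver and 1 SAT array. Its mean was 4.41 in brain and 4.46 in the RD male livers, both at background. The missing signal is therefore not particular to brain, and this probe cannot compare Rest between the tissues.

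Of the 30 genes, 21 (70.0%) had at least 1 probe detected on all arrays of a brain group, against 56.1% of all genes (10695 of 19057). By probe this was 39 of 67. All 4 Gria genes were among them, 4 of 5 Grik, 3 of 6 Grin, 4 of 6 Grm and 6 of 9 GABA-A genes. Probes of 1 gene often disagreed. In 11 genes every probe passed, in 10 only some, and for Grik1 it was 2 of 7. Signals are log2 values on a scale where probes at background lie between about 4 and 5. The lowest signal called detected on the brain arrays was 4.73 to 4.81. The height of 1 probe cannot be set against that of another.

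AMPA subunits were detected throughout the family. Brain values are given in the order 1B, 3B, 5C for controls and 3E, 1E, 6F for metformin animals. Gria2, the subunit whose edited form keeps calcium out of the channel, gave 12.07, 12.39 and 12.09 in control and 12.06, 12.09 and 12.23 in metformin brains (ILMN_2680737). Gria1, prominent in plasticity at excitatory synapses, gave 10.44, 10.17 and 10.01 against 9.82, 9.94 and 10.32 (ILMN_1221295). The groups overlapped for both. Gria3 gave 9.36, 9.15 and 9.19 against 8.57, 8.76 and 9.41 (ILMN_1251634), with 1 metformin brain above all controls and 2 below. Gria4 stayed near the detection limit, at 5.66, 5.31 and 5.46 against 5.23, 5.26 and 5.52 (ILMN_2663423).

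Among kainate subunits, Grik1, Grik2 and Grik5 were well above background. Grik1, a channel-forming subunit, gave 8.60, 9.07 and 9.09 in control and 9.26, 9.30 and 9.16 in metformin brains (ILMN_1243701). Every metformin brain was above every control there. Grik2, another channel-forming subunit, gave 8.17, 8.21 and 7.95 against 8.09, 8.11 and 8.20. Grik5, a high-affinity subunit that works in company with Grik1 to Grik3, gave 8.93, 8.60 and 8.53 against 8.48, 8.53 and 8.72 (ILMN_3163110). Both overlapped. Its relative Grik4 was detected on all brains but low (5.00 to 5.34), and the Grik3 probe was detected on none.

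For NMDA receptors the glycine-binding Grin3a and the glutamate-binding Grin2b were far above background. Grin3a, which lowers calcium entry through the channel and is known as an early postnatal subunit in rodents, gave 11.74, 12.003 and 11.56 in control and 11.62, 11.56 and 11.99 in metformin brains. Grin2b, the glutamate-binding subunit typical of the immature forebrain, gave 9.86, 9.80 and 8.93 against 8.997, 9.003 and 9.85 (ILMN_2547237). It ranged over 0.93 log2 units and was high in 1B, 3B and 6F and low in the other animals of both groups, the sides they took on the principal component. Grin2c was low (4.86 to 5.24). Grin2a, the subunit that takes over with maturation, was detected on 2 and 1 of 6 brains with its 2 probes. Grin2d and Grin3b were detected on none.

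Of the metabotropic receptors, Grm5, which couples to phospholipase C, gave 10.83, 11.20 and 10.95 in control and 10.98, 11.03 and 11.27 in metformin brains (ILMN_1242601). Grm7, a presynaptic receptor that lowers cyclic AMP, gave 10.13, 10.24 and 10.16 against 10.21, 10.14 and 10.19 (ILMN_1247084). Its range over the 6 brains, 0.11, was the narrowest of the 39 probes kept. Grm4 (7.88 to 8.30, ILMN_1252806) and Grm8 (6.91 to 7.27, ILMN_2711523), of the same presynaptic group, were detected on all brains. Grm6, the receptor of retinal ON bipolar cells, and Grm3, common in astrocytes, were detected on none.

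Among GABA-A subunits, the beta subunit Gabrb1 stood out from background with 9.32, 9.11 and 9.46 in control and 9.17, 9.28 and 9.23 in metformin brains (ILMN_2742197). Gabra3, an alpha subunit of the young cortex, gave 5.81, 6.63 and 7.11 against 7.18, 6.92 and 6.49. Gabrb2 gave 5.54, 5.54 and 6.39 against 6.36, 6.20 and 5.83 (ILMN_2696413). Control and metformin brains overlapped for all 3 genes. Gabrg1 (5.69 to 5.93, ILMN_2627367), Gabrg3 (4.96 to 5.73, ILMN_2565748) and the extrasynaptic Gabrd (5.47 to 5.81, ILMN_2865082) were detected on all brains at low signal. Gabra4, Gabra5 and Gabra6 were detected on none. Gabra6 belongs to mature cerebellar granule cells. Of the other cerebellar markers listed, Zic1 was at 10.5 to 11.1 and Pcp2 at 6.54 to 8.10 in the same brains. The Calb1 probe was detected on none.

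**Figure D1:**
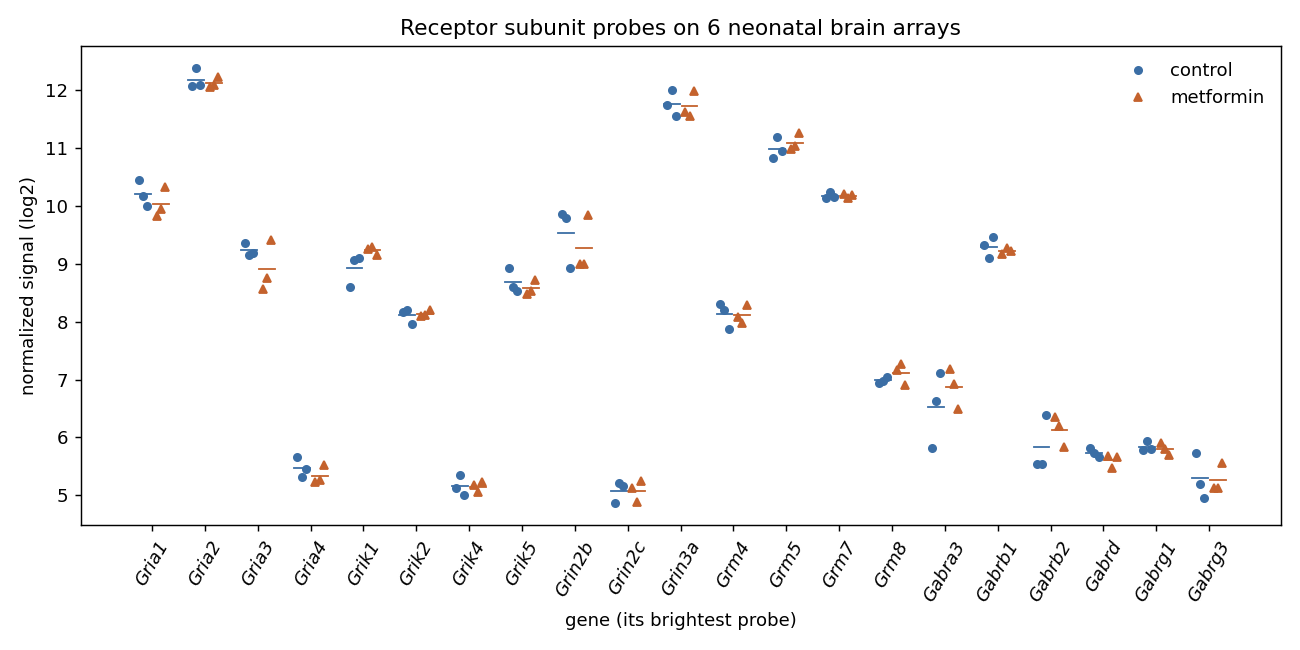
Normalized log2 signal of the brightest kept probe of each of the 21 genes (x axis) on the 6 brain arrays, with control animals as circles, metformin animals as triangles and bars at the group means. Heights compare animals within a gene and not genes with each other; only Grik1 shows all 3 metformin values above all 3 controls.

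The comparison of metformin with control brains asks whether exposure before birth left a trace in receptor transcripts on day 4. No subunit passed the adjusted threshold. By limma with Benjamini-Hochberg adjustment over 19182 probes, 1 probe of any gene was called (0.00521% of those tested), and it was no receptor subunit. Of the 39 subunit probes 1 (2.56%) had an unadjusted p under 0.05, where 1.95% of all probes did. The median log2 difference of the 21 genes was -0.03, that of all genes -0.02, and 7 genes were positive and 14 negative. Over the 39 probes the signs were balanced, with 19 positive and 20 negative.

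The groups did not overlap for 3 of 39 subunit probes (7.69%), and for 6.26% of all probes tested. Gria2 ILMN_3122922 gave 9.17, 9.28 and 9.35 in control and 9.46, 9.71 and 9.50 in metformin brains, a difference of 0.29 ± 0.12 (SE). Its unadjusted p by limma was 0.040 and its adjusted p 1.00. The other Gria2 probes gave -0.06 ± 0.13 and -0.07 ± 0.43, so the gene had no common direction. Grik1 differed by 0.32 ± 0.16 (unadjusted p by limma 0.074), and its second kept probe by -0.06 ± 0.14. Without control 1B the Grik1 difference was 0.16. Gabrd ILMN_2698299 gave 5.79, 5.52 and 5.62 against 5.35, 5.38 and 5.43, a difference of -0.25 ± 0.12 (unadjusted p by limma 0.062). The other Gabrd probe overlapped between groups and differed by -0.13 ± 0.12. Both shares, of unadjusted p and of groups without overlap, were near those of the whole array.

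What the 6 brains leave possible is given by the intervals. For the brightest probe of a gene, the 95% confidence interval reached a median of 0.33 log2 units either side of its estimate. It reached at most 0.73 (Gabra3, 0.35, from -0.38 to 1.08). Among these brightest probes that of Grm7 was bounded most closely, from -0.24 to 0.24. Some other probes had wider intervals, Grm7 ILMN_2684189 from -1.18 to 0.65 and Gria2 ILMN_1222167 from -1.07 to 0.93. For Gria2 the interval of the brightest probe ran from -0.36 to 0.24, for Grin3a from -0.42 to 0.33 and for Gabrb1 from -0.36 to 0.22.

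**Figure D2:**
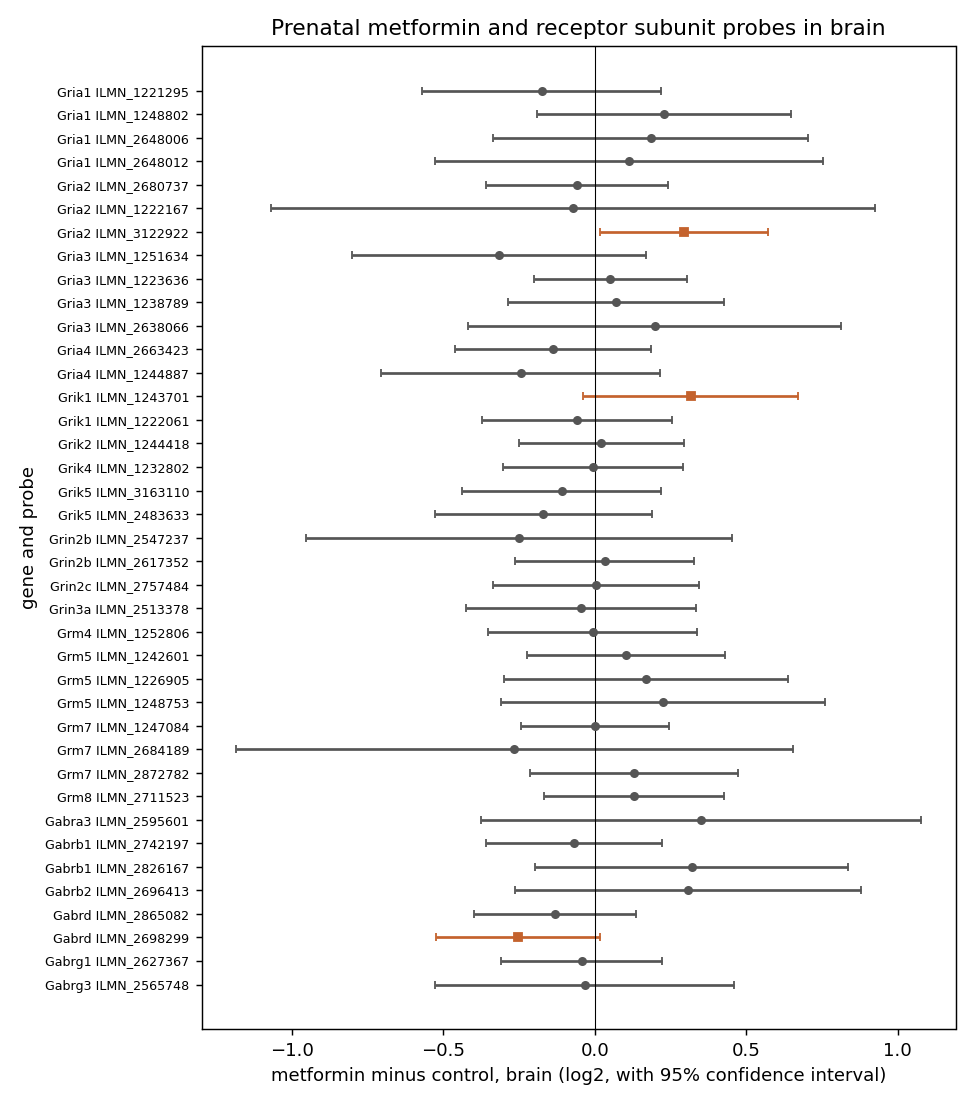
Log2 difference between metformin and control brains (x axis) with its 95% confidence interval for each of the 39 kept probes, 3 brains a group. Orange squares are the 3 probes whose groups did not overlap; probes of 1 gene, such as the 3 of Gria2, differ in sign, and no adjusted p passed 0.05.

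For several probes the animals within a group differed by more than the groups did, in a recurring pattern. Gria2 ILMN_1222167 ranged over 1.90 log2 units, with 8.59, 8.54 and 7.93 in control and 7.99, 7.48 and 9.37 in metformin brains. Grm7 ILMN_2684189 ranged over 1.36, with 6.16, 6.51 and 5.19 against 5.47, 5.14 and 6.44. Gabra3 ranged over 1.37. The first pair was high in 1B, 3B and 6F and low in 5C, 3E and 1E, and Gabra3 was higher in the latter animals. The same animals stood together on the first principal component.

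Probes of 1 gene differed in this pattern. Grm5 ILMN_1248753 gave 5.23, 5.33 and 5.97 in control and 5.81, 6.01 and 5.37 in metformin brains, while Grm5 ILMN_1242601 stayed within 0.44. Gabrb1 ILMN_2826167 gave 7.36, 7.59 and 8.03 against 8.26, 8.11 and 7.58, and ranged over 0.90 where the brighter Gabrb1 probe ranged over 0.35. Grm7 ILMN_2872782 gave 6.56, 6.66 and 6.70 against 6.93, 6.90 and 6.47, the reverse of ILMN_2684189. Outside the receptors the non-coding transcript Snhg11 gave 12.71, 11.26 and 10.54 against 10.51, 11.35 and 12.47, with its highest values in 1B and 6F. The mean of the 9 neuron markers stayed at 11.3 to 11.5. The mean of 5 astrocyte markers lay at 10.7 to 11.05 and that of 4 microglia markers at 5.43 to 6.00. Their part in the spread was not tested.

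**Figure D3:**
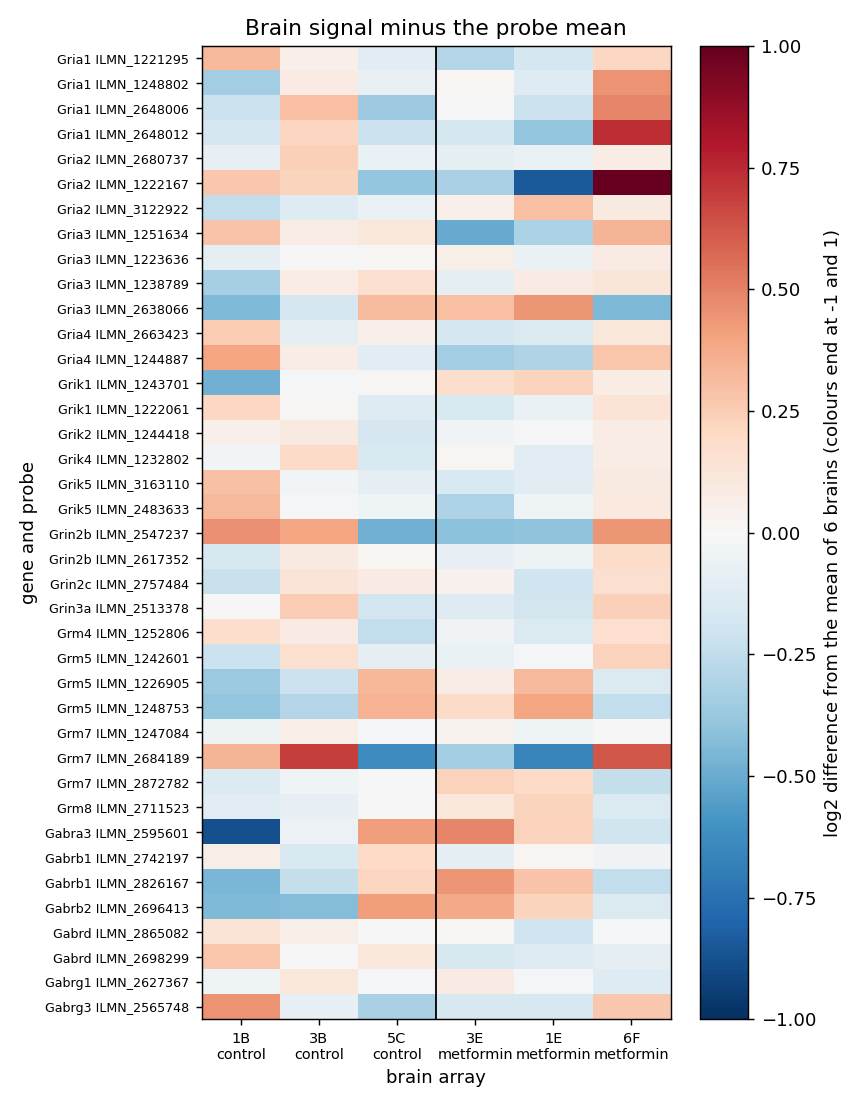
Log2 signal of each kept probe (rows) minus its mean over the 6 brains, in 3 control and 3 metformin arrays (columns, parted by the line), red above and blue below. Gria2 ILMN_1222167 and Grm7 ILMN_2684189 are red in 1B, 3B and 6F and blue in the rest, Grm5 ILMN_1248753 and Gabrb1 ILMN_2826167 the reverse.

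No gene of the synaptic machinery around these receptors was called either. Of 65 listed genes 55 had a probe and 44 were kept in brain, and by limma none passed the adjusted threshold. An unadjusted p under 0.05 was reached by 3 of the 44, where 1.95% of all probes reached it. Grip1, a scaffold that binds Gria2 and Gria3, gave 9.30 to 9.56 in control and 9.68 to 9.75 in metformin brains (0.32, unadjusted p by limma 0.026). The vesicular glutamate transporter Slc17a7 gave 9.93 to 10.3 against 9.32 to 9.85, a difference of -0.49, and Slc17a8 differed by -0.51. The more widespread Slc17a6 of the newborn brain differed by -0.01. The GABA-making enzymes Gad1 and Gad2 differed by -0.19 and -0.03 and the vesicular GABA transporter Slc32a1 by 0.02. The chloride importer Slc12a2 was detected on all brains (10.2 to 10.6) and the exporter Slc12a5 on 3 of 6. In the same brains the erythroid marker Hba-a1 differed by -0.52 and Alas2 by -0.30. Of the cerebellar markers kept, Pcp2 differed by -0.61 and Zic1 by 0.08. None of these passed the adjusted threshold. Their part in the differences was not tested.

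Brain was set against liver of the same RD male animal codes to place these signals against a tissue with few neuronal cells. By limma 20 of 21 genes were higher in brain, none lower, and Grin2c did not pass. By probe it was 37 of 39 (94.9%), where 42.7% of all 21843 probes tested were higher in brain and 39.2% lower. All 39 probes entered the test through a brain group and only 4 also through a liver group, so a count of higher calls was favoured by the filter. With no filter 21 of 30 genes were higher and none lower. About 20340 of all 45281 probes were then called in either direction, and their split by direction is not given. The count of 21 genes thus has no matching share of all genes higher in brain. The median over the 21 genes was 3.51 log2 units, that of all genes 0.08. It fell to 1.28 over all 30 genes with no filter and was 1.09 with the authors' log2 values.

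The widest differences were in Grin3a, Gria2 and Grm5. Grin3a was 6.66 ± 0.28 (SE) higher in brain (adjusted p 3.61e-11 by limma), from a mean of 5.09 ± 0.77 (SD, 6 livers) to 11.7 ± 0.2 (SD, 6 brains). Gria2 was 6.52 ± 0.31 higher (adjusted p 1.42e-10 by limma) and Grm5 6.34 ± 0.22 (4.49e-12). Grm7 differed by 5.69 ± 0.12, Gria1 by 5.20 ± 0.15, Grin2b by 4.58 ± 0.22, Grik5 by 4.04 ± 0.12 and Gria3 by 3.91 ± 0.15. Grin3a and Grm5 passed the detection filter only through brain groups, so these p-values are those of probes kept for their brain signal. With no filter their adjusted p-values by limma were 7.34e-09 and 1.18e-09. All the differences are of measured signals, and many livers were at background. Grm5, Grm7 and Grik5 were detected on 1 of the 6 livers, Grin3a and Grin2b on 2, Gria1 on 3, Gria3 on 5 and Gria2 on 6. The liver means of Grm5 (4.70), Grm7 (4.49) and Grik5 (4.60) lay below the lowest signals called detected there (4.88 to 5.03). The size of such a difference depends on the background level, and the order of the genes is a description only.

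Where a probe was detected on no liver the fold is a lower bound, the brain mean over the livers' lowest detected signals. These bounds hold on the scale of the main processing only. The measured Gabrb1 difference of 4.73 log2 units was 1.90 with the authors' log2 values and 3.51 without background correction. That of Grik1 was 4.61, and 1.77 and 3.38 in the same alternatives. Gabrb1 was at least 20.0-fold higher in brain on this count, Grik1 at least 17.6-fold, Grik2 at least 9.06-fold, Grm4 at least 9.05-fold and Grm8 at least 4.31-fold. Gabra3 was at least 3.36-fold higher, Gabrb2 at least 2.05-fold and Gabrg1 at least 1.83-fold. Gabrb1 had the highest bound among these probes, each the brightest of its gene. Less bright probes detected on no liver reached higher bounds, 28.8-fold for Gria1 ILMN_1248802 and 22.2-fold for Gria2 ILMN_3122922.

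The smallest differences were those of Gabrd (0.99 ± 0.08), Gabrg3 (0.52 ± 0.13), Gria4 (0.46 ± 0.13, adjusted p 0.0061 by limma), Grik4 (0.26 ± 0.11, adjusted p 0.040 by limma) and Grin2c (-0.10 ± 0.10, adjusted p 0.37 by limma). Grin2c was detected on all 6 brains and all 6 of these livers. The Gria4 value is that of ILMN_1244887, the brightest over brain and liver together. ILMN_2663423, the Gria4 probe given for the brains above, was detected on no liver. It was at least 1.38-fold higher in brain, with a measured difference of 1.09 ± 0.09 log2 units. The call of Grik4 was lost without any 1 of 5 animals (1B, 3B, 5C, 1E or 6F), at adjusted p by limma from 0.054 to 0.14.

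**Figure D4:**
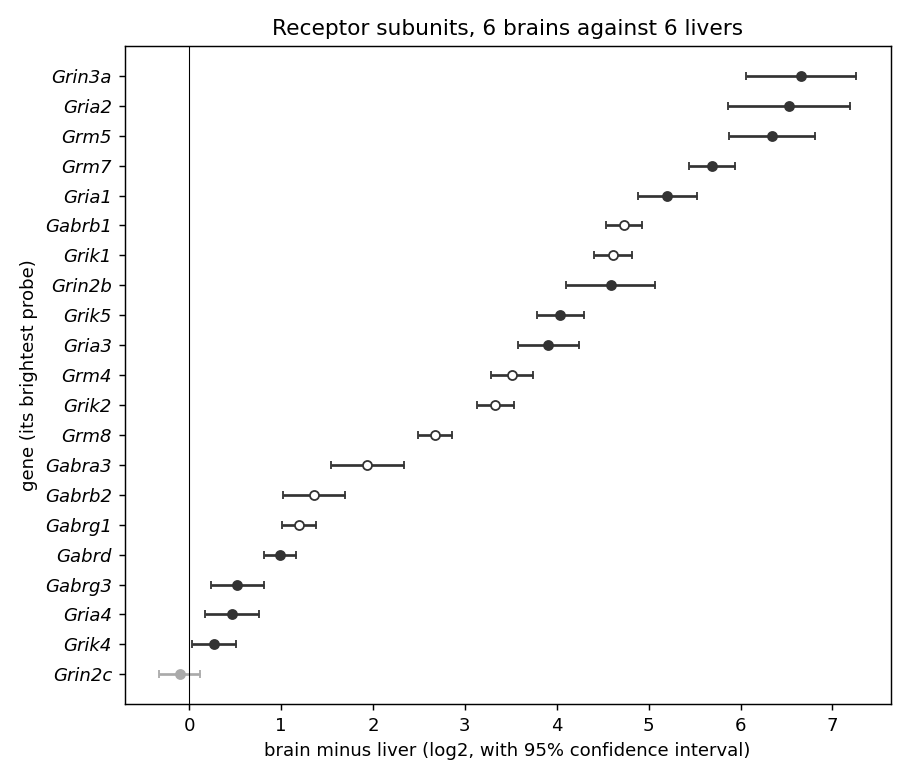
Brain minus liver in log2 units (x axis) with 95% confidence intervals for the brightest kept probe of 21 genes, 6 brains against 6 livers of RD males. Open circles are probes detected on no liver, whose differences are against background; Grin3a, Gria2 and Grm5 lie beyond 6 and Grin2c (grey) at -0.10 did not pass.

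One liver stood apart, the metformin animal 3E. Gria2 gave 5.76, 5.41 and 5.06 in the control livers 1B, 3B and 5C and 5.41, 7.26 and 4.89 in the metformin livers 1E, 3E and 6F. Grin3a gave 4.96, 4.84 and 4.63 against 4.94, 6.63 and 4.53, and Grm5 4.68, 4.46 and 4.47 against 4.36, 5.85 and 4.37. In all of these liver 3E was the highest. It held the highest value of the 6 for 19 of the 39 probes, and 12 of 67 subunit probes were detected in it against 4 to 7 in the others.

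Of the 9 neuron markers 8 had their highest liver value there too. Stmn2, a growth protein of neurites, was at 8.97 in liver 3E and 5.26 to 7.31 in the others, and Syn1, of synaptic vesicles, at 7.28 against 4.72 to 5.72. Rbfox3, a nuclear protein of mature neurons, did not stand out, at 6.31 against 5.93 to 6.32. All 9 markers were detected in liver 3E and 5 to 7 in the others, with means of 6.80 and 5.43 to 5.81. Their part in the subunit signals of that liver was not tested. Without animal 3E, Grin3a was 6.997, Gria2 6.89 and Grm5 6.62 log2 units higher in brain, and the same count of 20 genes was called.

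**Figure D5:**
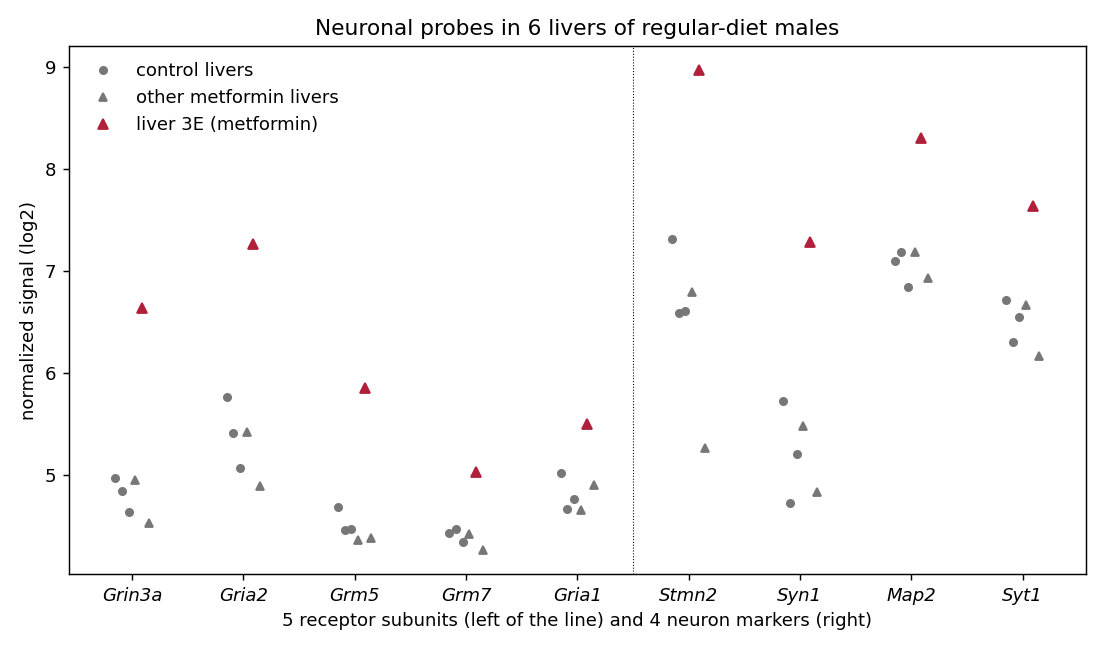
Normalized log2 signal (y axis) of 5 receptor subunits and 4 neuron markers in the 6 RD male livers, controls as circles, metformin livers as triangles and liver 3E in red. Liver 3E has the top value for all 9 genes, for example 7.26 for Gria2 and 8.97 for Stmn2.

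In liver and SAT more than 1 in 2 subunit probes were never detected, 39 of 67 over 24 livers and 47 over 11 SAT arrays. The share of all probes never detected was not counted. On single arrays 30.97% to 41.6% of all probes were detected in liver and 29.9% to 43.4% in SAT. The Gria2 (ILMN_2680737), Grik4 and Grin2c probes were each detected on 11 livers, Grin2c also on 7 SAT arrays and Grik2 on 8. Gria3 ILMN_2638066 was detected most widely, on all 24 livers (5.22 to 6.63, median 5.92) and 10 of 11 SAT arrays (4.80 to 6.48, median 5.37). In brain it gave 5.50, 5.76 and 6.25 in control and 6.24, 6.38 and 5.48 in metformin animals, within the range of the livers. It differed between brain and liver by 0.33 ± 0.19 (adjusted p 0.12 by limma), where the brightest Gria3 probe was 3.91 higher in brain.

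Metformin against control gave no called subunit in either of these tissues. In liver 5 probes of 4 genes were kept. By limma 0.758% of 17547 probes were called in HFD males and 0.0912% in RD animals, none of them a subunit. An unadjusted p under 0.05 was reached by 1 of the 5 subunit probes in HFD livers, where 17.8% of all probes reached it, and by 0 in RD livers, where 8.31% did. Grik4 gave 4.64 to 4.92 in the 6 HFD control and 4.61 to 5.75 in the 6 HFD metformin livers, a difference of 0.40 ± 0.15 (unadjusted p by limma 0.012, adjusted 0.16). The groups overlapped. In RD livers Gria2 differed by 0.40 ± 0.29 (adjusted p 0.80 by limma), and by 0.05 to 0.64 with 1 liver left out (0.05 without 3E, 0.21 without the metformin female 4E and 0.64, with an unadjusted p of 0.028, without the metformin male 6F).

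In SAT 3 probes of 3 genes were kept and 0% of 15848 probes were called, by limma, with 1 of the 3 subunit probes and 16.3% of all probes at an unadjusted p under 0.05. The paper, with its own processing, reported differentially expressed genes in SAT at a false discovery rate under 0.05. The lack of called subunits in the present SAT model is therefore weak information. Grin2c gave 4.28 to 5.03 in 6 control and 4.95 to 5.28 in 5 metformin samples, 0.40 ± 0.16 higher (unadjusted p by limma 0.031, adjusted 0.27). The lowest of its controls were 1R-4 and 1T-1, at 4.28 and 4.32, whose arrays also had the lowest shares of detected probes in SAT (29.9% and 31.5%). Gria3 ILMN_2638066 differed by -0.38 ± 0.28 and Grik2 by 0.18 ± 0.19. The same 2 controls held the highest Gria3 values (6.48 and 6.46 against 4.80 to 5.49 in the other 9), and the part of these arrays in the differences was not tested.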

How the data were processed

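Total RNA was hybridised to Illumina Mouse WG-6 v2 arrays (41 arrays, 1 animal and tissue each). The authors deposited bead intensity values per probe, not normalized, and beside each of them a p-value of detection. They also deposited log2 values made with lumi (transformed and normalized, version not given in the sources used here), which served as an alternative. Intensities were corrected with neqc of limma 3.58.1 (R 4.3.3, offset of 16) using the detection p-values, then quantile normalized and log2 transformed over all arrays. Probes entered a model if all arrays of 1 or more of its groups had a detection p below 0.05. Moderated linear models (lmFit, contrasts.fit, eBayes) gave the tests, adjusted after Benjamini-Hochberg across the kept probes with a threshold of 0.05. The brain model held 6 arrays, the brain and liver model 12, the liver model 24 and the SAT model 11. A gene is represented by its brightest kept probe. Named were all called subunits, those with an unadjusted p under 0.05 or groups that did not overlap, the 10 widest and 5 narrowest brain-liver differences, and those kept in liver or SAT. The members and gene lists were chosen with earlier results of these data known. Symbols come from the platform's annotation, with all 30 genes matched in RefSeq. Same-coded brains and livers were taken as 1 animal. Their deviations from the group means correlated at -0.04 to 0.33 over kept probes. Brains 3B, 3E and 6F matched their own-coded liver best, and brains 1B, 5C and 1E a liver of another code. The pairing thus rests on the codes. Only the brain model was tested on simulated data. Its noise was drawn for each probe on its own, without the pattern shared by the brains. The number of arrays limits the precision. Figures were drawn with matplotlib 3.10.9.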

Additional observations from a re-analysis of the deposited data

How the results depend on the processing

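No subunit was called under metformin by limma in the 11 alternatives run for brain, in the 2 run for liver and SAT (the authors' log2 values and no filter), or with any 1 sample left out. The median difference in brain ran from -0.10 (array weights) to 0.03 (without 3B or 1E). Adjusted p-values in brain ranged from 0.14 to 1.00 for Gria2 ILMN_3122922, from 0.22 to 1.00 for Grik1 and from 0.27 to 1.00 for Gabrd ILMN_2698299. Probes of any gene called in brain numbered 0 with the authors' log2 values, 7 with array weights and 6 with all 41 arrays in 1 model. Between brain and liver 19 to 21 genes were higher and none lower, and 19 or 20 with an animal left out. The median of 3.51 depended on the scale. It was 1.09 with the authors' log2 values, 2.40 without background correction, 2.42 with an offset of 50, 4.25 with arrays centred on their medians, 1.28 without a filter, 3.71 at a detection p under 0.01, 2.67 as the mean of a gene's probes and 3.97 with 12 arrays normalized alone. Grin2c changed sign with arrays centred on their medians (0.24, adjusted p 0.17 by limma). Grik4 missed the threshold without background correction, with an offset of 50, without a filter and in control males only. With the animal as a replicate block the paired fit gave 20 genes higher and a median of 3.51, and it changed no call among the results given. The causes were not tested. Low probes near background carry little information on differences, and small changes in Gabrd, Gabrg3, Gria4, Grik4 or Grin2c could go unseen.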

Other observations

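The Gabrg1 probe ILMN_2627367 was high on single arrays outside brain. Among HFD controls it gave 6.15 in the liver and 6.79 in the SAT of animal 1R-4, and 5.32 and 5.72 in those of 1T-1, against 4.48 to 4.95 in the livers and 4.31 to 4.91 in the SAT of the other 4 controls. The metformin livers 3R-2 and 3R-6 gave 5.81 and 5.72, and their SAT 4.89 and 4.51. In brain the same probe gave 5.69 to 5.93. The shares of probes detected on these arrays were 34.0% and 35.7% for the livers of 1R-4 and 1T-1, 35.5% and 30.97% for those of 3R-2 and 3R-6, and 29.9% and 31.5% for the SAT of 1R-4 and 1T-1, where the other HFD livers had 35.59% to 39.9%. The part of this in the values was not tested. The probe and arrays were singled out after they were seen and have no test.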
